A study of Mus musculus with 6 samples.

Results

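The samples are 4 bulk RNA-seq libraries of prefrontal cortex from Shank3 mutant mice, 2 from animals given GSK-LSD1 and 2 from animals given vehicle, chosen by their labels out of 6 libraries in the series. All 4 animals carried Shank3 +/∆C, that is, 1 normal copy of Shank3 and 1 with its C-terminal part deleted, and all were aged 6 to 8 weeks. The other 2 libraries came from vehicle-treated wild-type mice of the same age, a cross of C57BL/6 and C3H. They were used here to share the estimate of spread and as a reference level. The dose, route and timing of GSK-LSD1 and the strain background of the mutants are not stated in the labels. The labels call the libraries of a group biological duplicates, and the design text describes separate mice. The comparison addresses what the inhibitor did to cortical gene expression in mutants, with the mutation present on both sides.

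GSK-LSD1 is a small-molecule inhibitor of LSD1 (Kdm1a), which removes methyl groups from lysine 4 of histone H3. LSD1 works in repressive complexes with CoREST and histone deacetylases, which transcription factors such as REST and GFI1 bring to their target genes. Shank3 holds receptors and signalling proteins together beneath the membrane of excitatory synapses, and loss of 1 copy is tied to autism and Phelan-McDermid syndrome. The EGR factors, the AP-1 factors and other activity-induced genes are switched on within minutes to hours by neuronal firing, and LSD1 has been studied as a regulator of some of them.

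In mutants given GSK-LSD1, 19 genes were higher and 1 was lower than in mutants given vehicle. The protein-coding genes with the smallest p-values were the trafficking protein Hap1, the transcription factor Egr2, the dense-core vesicle protein Baiap3 and the neuronal filament Prph. Stretches of 250 bases before the start sites of the first 3 of these are shown, since these genes had the smallest p-values among the protein-coding ones that rose (RefSeq, GRCm38.p6). Capitals mark the matches to the motifs searched. In Hap1 (chr11:100356129-100356378, minus strand) the capitals are a CRE core, TGACG (the shorter of the forms CREB binds), read on the opposite strand, with its first base 105 bases before the start. In Egr2 (chr10:67537619-67537868, plus strand, nearest to the start of the principal transcript) they are 2 such cores, 111 and 55 bases before the start, and between them a CArG box, the sequence bound by serum response factor, at 72 bases. In Baiap3 (chr17:25256365-25256614, minus strand) they are the right part of the RE1 element bound by REST, GGACAGC, at 140 bases.
Hap1: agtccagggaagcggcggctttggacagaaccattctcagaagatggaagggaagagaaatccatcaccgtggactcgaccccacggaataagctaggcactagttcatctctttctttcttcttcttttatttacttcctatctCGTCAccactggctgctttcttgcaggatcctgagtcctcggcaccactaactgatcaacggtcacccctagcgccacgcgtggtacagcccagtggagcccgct
Egr2: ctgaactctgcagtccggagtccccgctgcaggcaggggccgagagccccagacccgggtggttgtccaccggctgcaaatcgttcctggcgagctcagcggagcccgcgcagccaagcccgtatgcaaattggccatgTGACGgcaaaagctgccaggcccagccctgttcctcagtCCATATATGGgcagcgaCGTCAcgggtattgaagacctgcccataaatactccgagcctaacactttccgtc
Baiap3: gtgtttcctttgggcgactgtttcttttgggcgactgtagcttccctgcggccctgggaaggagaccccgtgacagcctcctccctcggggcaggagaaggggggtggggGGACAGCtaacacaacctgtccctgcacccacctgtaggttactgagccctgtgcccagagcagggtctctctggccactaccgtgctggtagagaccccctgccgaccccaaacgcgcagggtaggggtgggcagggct
A match is a description of the letters and not of binding.

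The GSK-LSD1 libraries held 23538125 and 14133834 counted reads, the vehicle mutants 21734688 and 21488920, and the wild-type libraries 15194848 and 28646960. Levels are given as CPM, read counts relative to library size after scaling with edgeR's TMM factors. Before that scaling, 3 reads in a library correspond to 0.105 to 0.212 CPM. Shank3 lay at 146 and 174 CPM with vehicle and 159 and 148 CPM with GSK-LSD1 (log2 fold change -0.06, edgeR adjusted p = 0.999). Exons that the deletion leaves in place add to this count, so it does not check the genotype. Kdm1a itself lay at 97.2 and 86.3 CPM with vehicle and 95.3 and 89.9 CPM with GSK-LSD1, so its RNA gives no check of the treatment, which acts on the protein. Markers of cortical neurons were present in every library: the 11 excitatory neuron markers summed to 3239 to 4486 CPM and the 17 inhibitory neuron markers to 863 to 1013 CPM. The libraries did not separate by treatment in the genes that differed most within each pair of libraries, a set that changes from pair to pair. The root mean square of the 500 largest log2(CPM + 1) differences was 1.06 between both GSK-LSD1 libraries, 0.893 between both vehicle libraries and 0.981 to 1.14 between a treated and an untreated one. GSK-LSD1 library 1 stood apart from the other 3 mutant libraries in its oligodendrocyte genes, as described with the marker lists.

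Of 18705 genes tested, 20 passed an adjusted p of 0.05 (0.107% of those tested), 19 of them higher (0.102%) and 1 lower (0.00535%). At an unadjusted p under 0.05 there were 1066 genes (5.70%), of which 594 were higher (3.18%) and 472 lower (2.52%). For 3189 genes (17.0%) both treated libraries lay above both untreated ones, and for 3102 genes (16.6%) both lay below. These shares over all tested genes are the reference for the counts of list members given below. Each group holds 2 libraries, so the number of libraries limits which differences could pass. The numbers of calls depended on single libraries. Without vehicle library 1 or 2 there were 8 higher genes, without GSK-LSD1 library 2 there were 34 higher and 49 lower, and without wild-type library 1 there were 29 higher. Hap1, Egr2, Baiap3, Prph, Nek10 and Rps2-ps10 were called in each of the 19 alternative fits, and no called gene changed sign in any of them.

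**Figure D1:**
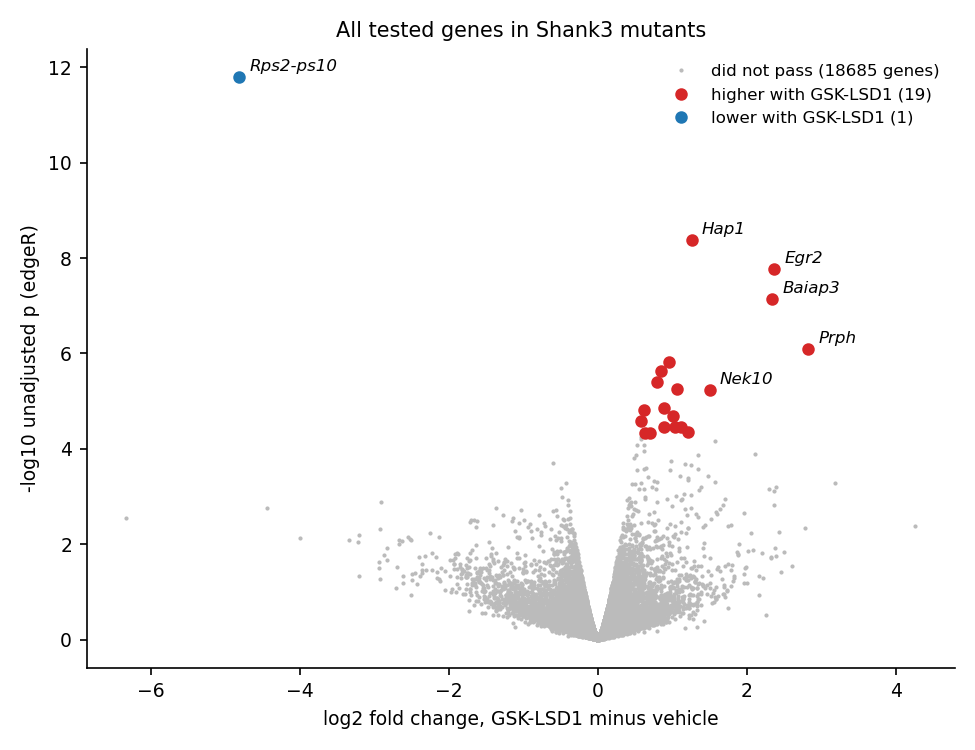
Each point is 1 of 18705 tested genes in Shank3 mutants, with the log2 fold change of GSK-LSD1 against vehicle on the horizontal axis and -log10 of edgeR's unadjusted p on the vertical axis. The 19 genes that passed as higher (red) lie at log2 fold changes of 0.59 to 2.82, and the 1 lower gene, Rps2-ps10 (blue), lies at -4.82.

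Hap1, Baiap3 and Doc2b, which act in neuronal transport or vesicle release, were among the genes that rose. Hap1 (huntingtin-associated protein 1, chromosome 11, 100347327 to 100356128, minus strand) links cargo to motor proteins in neurons. It was counted at 98.9 and 89.1 CPM with vehicle and at 218 and 232 CPM with GSK-LSD1. The groups did not overlap, and the increase was 2.40-fold (log2 fold change 1.26 ± 0.12 SE, n = 2 libraries per group, edgeR adjusted p = 3.90e-05). The wild-type libraries lay at 125 and 99.5 CPM, below both treated ones. Hap1 is the motor and trafficking gene that passed of 30 such genes tested (0.107% of all tested genes passed), and their median was -0.04. Ahi1, which encodes a partner of the Hap1 protein, was at 281 and 243 CPM with vehicle and 334 and 371 CPM with GSK-LSD1 (0.43 ± 0.11, adjusted p = 0.336), without overlap but not past the threshold.

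Baiap3 (chromosome 17, 25242659 to 25256364, minus strand) is a member of the Munc13 family that acts in dense-core vesicle traffic. It stood at 11.6 and 6.89 CPM with vehicle and 42.4 and 51.6 CPM with GSK-LSD1. This was a 5.09-fold increase (2.35 ± 0.21, adjusted p = 3.43e-04), and the wild-type libraries, at 8.76 and 7.37 CPM, lay in the vehicle mutants' range. Its annotated exons share 140 bases (2.7% of them) with Tsr3 on the opposite strand and reads there may be shared. Doc2b, a calcium sensor of vesicle fusion (chromosome 11, 75768966 to 75796049, minus strand), was at 11.3 CPM in both vehicle libraries and at 24.3 and 23.2 CPM with GSK-LSD1 (1.07 ± 0.17, adjusted p = 0.0108). Its call was lost without vehicle library 1 (adjusted p = 0.0897) or 2 (adjusted p = 0.0707), with the same log2 fold change of 1.07. The wild-type libraries held 16.4 and 11.9 CPM.

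The rest of the release machinery gave no further call. Of 49 vesicle release genes tested, 2 rose (Baiap3 and Doc2b) and none fell, against 0.102% and 0.00535% of all tested genes. The median was -0.07. At an unadjusted p under 0.05 there were 3 higher and 4 lower, against 3.18% and 2.52% of all tested genes. Cplx1, the complexin that clamps synaptic vesicle fusion, was at 279 and 284 CPM with vehicle and 224 and 227 CPM with GSK-LSD1 (-0.32, adjusted p = 0.557). Syt17, a synaptotagmin-family protein, was at 61.3 and 68.5 CPM with vehicle and 90.7 and 78.8 CPM with GSK-LSD1 (0.39, adjusted p = 0.499). Both were without overlap and did not pass.

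Prph encodes peripherin, an intermediate filament best known from peripheral and some central neurons (chromosome 15, 99055174 to 99058978, plus strand). It was close to absent with vehicle, at 0.552 and 1.54 CPM, and reached 7.08 and 7.84 CPM with GSK-LSD1, a 7.12-fold increase (2.82 ± 0.38, adjusted p = 0.00301). The wild-type libraries lay at 0.753 and 0.578 CPM. This was the largest positive log2 fold change among the genes that passed, and it rests on 12 and 34 reads in the vehicle libraries against 167 and 115 with GSK-LSD1. Of 13 intermediate filament genes Prph was the one that passed, and Nefm, the medium neurofilament, lay at 135 and 126 CPM with vehicle and 94.0 and 116 CPM with GSK-LSD1 (-0.32, adjusted p = 0.712).

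Zcchc12, a zinc-finger coactivator found in brain (chromosome X, 36195904 to 36199158, plus strand), was at 51.5 and 42.4 CPM with vehicle and 76.2 and 93.4 CPM with GSK-LSD1 (0.85 ± 0.12, adjusted p = 0.00618). Without vehicle library 2 its adjusted p was 0.0959. Hap1, Baiap3 and Zcchc12 also stand on the list of hypothalamus, septum and preoptic markers, and the level of that list in each library is given with the marker lists.

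**Figure D2:**
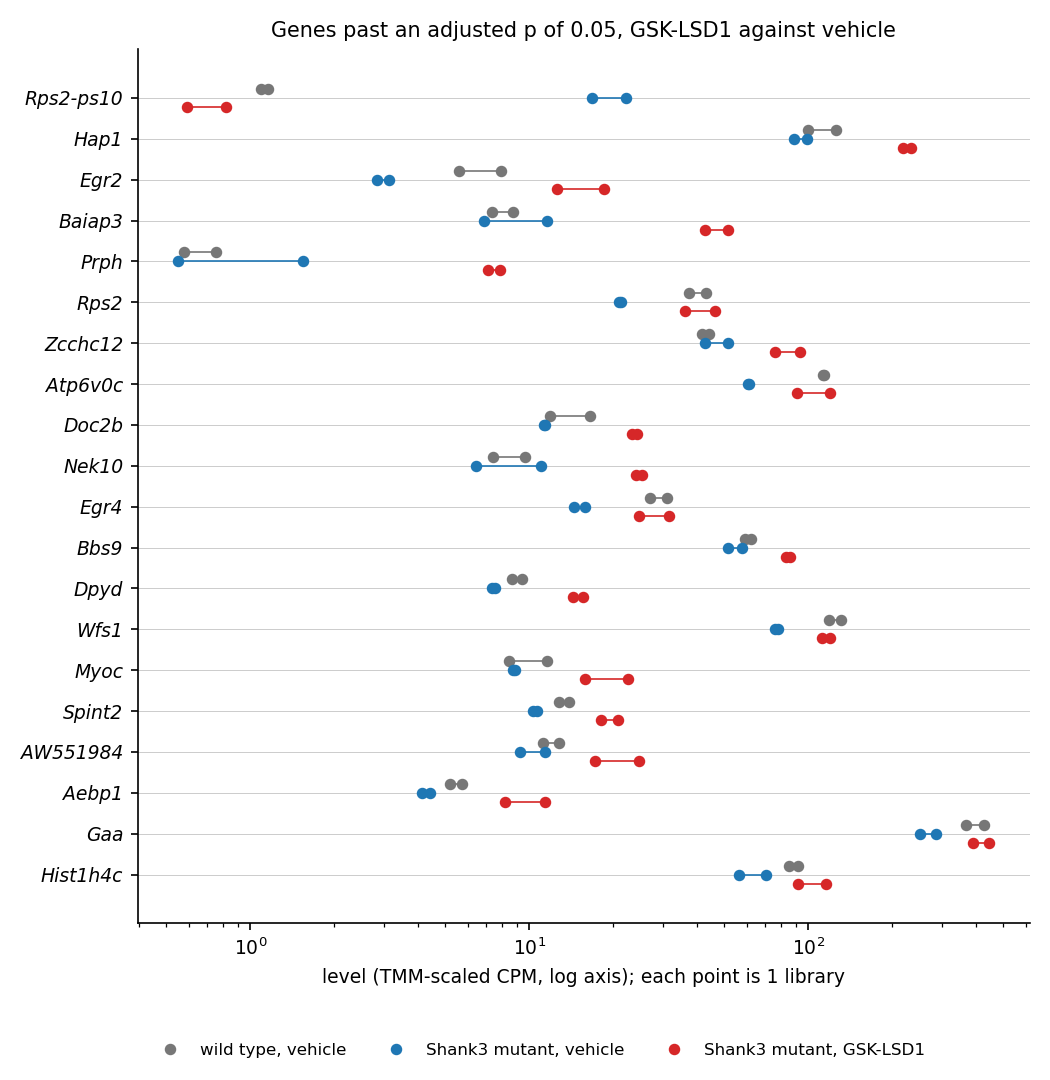
The level of each of the 20 genes that passed is shown in all 6 libraries, as TMM-scaled CPM on a log axis, with 1 point per library and a line joining the 2 libraries of a group. Red (GSK-LSD1) and blue (vehicle) do not overlap for any gene shown; grey (wild type) overlaps red for Egr4, Wfs1, Gaa, Hist1h4c, Atp6v0c and Rps2.

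EGR factors bind GC-rich sites and pass neuronal activity on to later genes, and NAB proteins hold them in check. Egr2 (chromosome 10, 67535475 to 67542188, plus strand) was at 2.85 and 3.13 CPM with vehicle and 12.5 and 18.5 CPM with GSK-LSD1. That was a 5.19-fold increase (2.36 ± 0.24, adjusted p = 1.07e-04), and the wild-type libraries, at 5.61 and 7.91 CPM, lay between both mutant groups. Egr4 (chromosome 6, 85511121 to 85513589, minus strand) rose from 14.4 and 15.8 CPM to 24.6 and 31.7 CPM (0.89 ± 0.15, adjusted p = 0.0238), and the wild-type libraries held 31.1 and 27.1 CPM, in the treated range. Its call was lost without GSK-LSD1 library 2 (adjusted p = 0.0694), vehicle library 1 (adjusted p = 0.209) or vehicle library 2 (adjusted p = 0.0702), and in 4 of the 13 alternatives that leave out no library.

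No other member of the family passed. Egr1, the most abundant of them, was at 114 and 82.0 CPM with vehicle and 114 and 173 CPM with GSK-LSD1, and the groups overlapped (0.54 ± 0.24, adjusted p = 0.912). Egr3 was at 63.8 and 66.6 CPM with vehicle and 57.1 and 79.8 CPM with GSK-LSD1 (0.06, adjusted p = 0.999), and its sign turned without GSK-LSD1 library 2 (-0.18). Nab2, a corepressor of the EGR factors, was without overlap (0.50 ± 0.17, adjusted p = 0.593). In all, 2 of 6 EGR and NAB genes rose and none fell, against 0.102% and 0.00535% of all tested genes. Their median was 0.52, or 0.31 without GSK-LSD1 library 2. The list was chosen with earlier results of these data known.

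No AP-1 gene passed the threshold of edgeR's robust fit, yet all 8 tested had positive log2 fold changes (median 0.29). At an unadjusted p under 0.05, 4 of the 8 were higher, against 3.18% of all tested genes. Fos, the classical marker of recent neuronal activity, was at 15.1 and 11.9 CPM with vehicle and 34.9 and 53.8 CPM with GSK-LSD1, against 16.6 and 26.1 CPM in wild type (1.71 ± 0.30, adjusted p = 0.296). It was called by DESeq2 (adjusted p = 8.32e-10), by limma-voom (adjusted p = 0.0148) and by edgeR without the robust option (adjusted p = 0.0134). It was also called when wild-type library 1 (adjusted p = 0.029), wild-type library 2 (adjusted p = 0.0248), GSK-LSD1 library 1 (adjusted p = 0.00174) or GSK-LSD1 library 2 (adjusted p = 0.0102) was left out. Junb, a partner of Fos, was at 36.1 and 32.5 CPM with vehicle and 76.4 and 108 CPM with GSK-LSD1 (1.42 ± 0.29, adjusted p = 0.502). Its adjusted p was 0.0165 with DESeq2, 0.0148 with limma-voom, 0.00247 without wild-type library 1 and 0.00281 without wild-type library 2. So whether Fos and Junb pass depends on how their spread is estimated and on the libraries used. Their levels did not overlap between the 2 mutant groups.

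Of 29 other activity-induced genes 25 were positive, with a median of 0.58, against a median of 0.00 over all tested genes. None passed, and 12 were higher and 1 lower at an unadjusted p under 0.05, against 3.18% and 2.52% of all tested genes. Without overlap 16 were higher and 2 lower, against 17.0% and 16.6%. Btg2, an antiproliferative gene induced by firing, was at 13.9 and 14.5 CPM with vehicle and 31.8 and 41.4 CPM with GSK-LSD1 (1.36, adjusted p = 0.225). It was called by DESeq2 (adjusted p = 5.83e-06), by limma-voom (adjusted p = 0.0323), without wild-type library 1 (adjusted p = 1.59e-04) and without wild-type library 2 (adjusted p = 2.74e-04). Per1, a clock gene with a CREB-responsive promoter, was at 52.1 and 51.8 CPM with vehicle and 70.0 and 90.3 CPM with GSK-LSD1 (0.62, adjusted p = 0.0795). It was called by DESeq2 (adjusted p = 0.0132), without GSK-LSD1 library 1 (adjusted p = 0.00788) and without wild-type library 1 (adjusted p = 0.044). The kinase Sik1 (0.76, adjusted p = 0.194) and the prostaglandin synthase Ptgs2 (0.63, adjusted p = 0.292) also lay higher in both treated libraries and did not pass.

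Arc and Npas4, 2 neuron-specific early genes named after their values were seen, showed how far single animals differed. Arc was at 93.4 and 85.2 CPM with vehicle, 201 and 378 CPM with GSK-LSD1, and 49.4 and 134 CPM in wild type (1.69 ± 0.67, adjusted p = 0.924). Npas4 was at 5.47 and 10.9 CPM with vehicle and 23.9 and 32.8 CPM with GSK-LSD1 (1.78 ± 0.70, adjusted p = 0.924). For neither gene did the 2 mutant groups overlap. For Arc the wild-type libraries, at 49.4 and 134 CPM, lay on both sides of the vehicle libraries and further apart than these. The summed level of all 43 EGR, AP-1 and other activity genes tested was 1502 and 1350 CPM with vehicle, 1820 and 2336 CPM with GSK-LSD1, and 1586 and 1814 CPM in wild type. Across the lists 38 of the 43 were positive, and GSK-LSD1 library 2 held the higher sum. Without that library the median of the 29 other activity-induced genes was 0.22, and without GSK-LSD1 library 1 it was 0.74. The state of each animal before tissue collection is not in the labels, and its part in these levels was not tested.

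**Figure D3:**
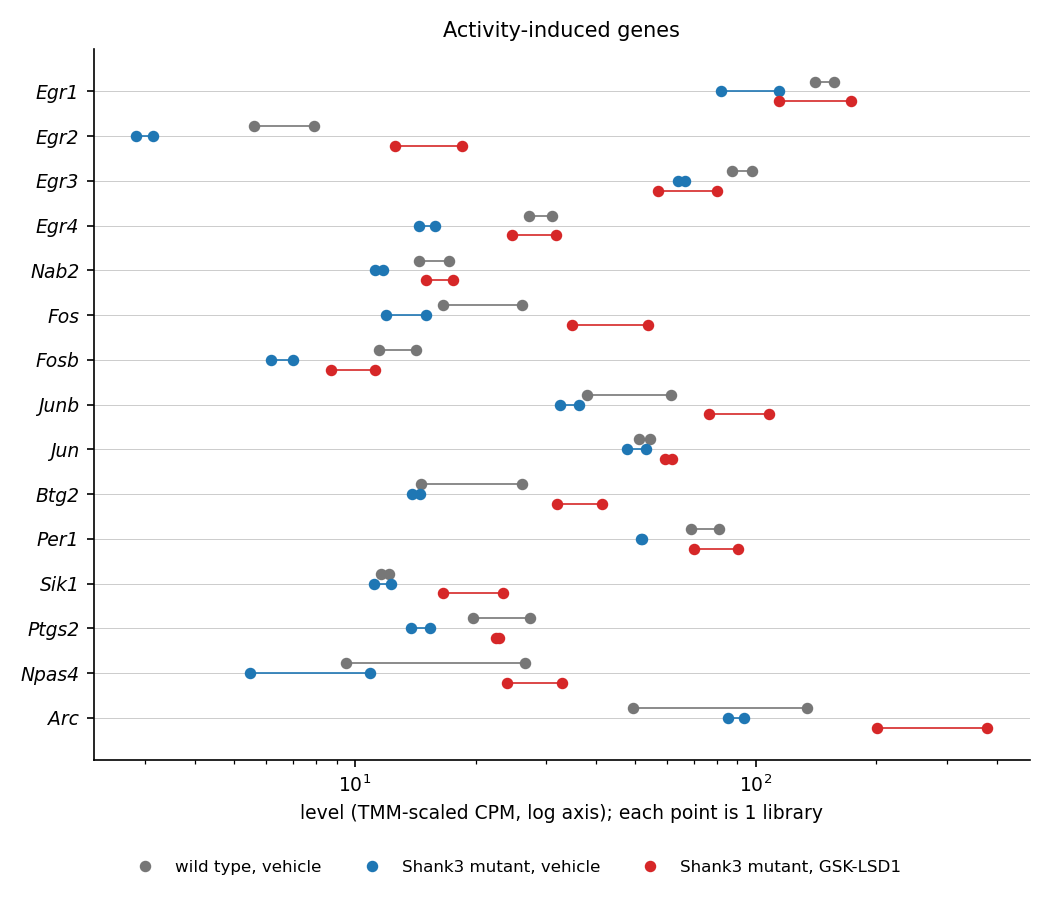
The levels of 15 activity-induced genes are shown in each library, as TMM-scaled CPM on a log axis, with 1 point per library. The GSK-LSD1 libraries (red) lie above the vehicle mutants (blue) for all but Egr1 and Egr3, and of the 15 genes Egr2 and Egr4 passed the test.

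Nek10 and Bbs9 were also among the genes that rose. Nek10, a kinase tied to cilia and to DNA damage responses (chromosome 14, 14803415 to 15012059, plus strand), was at 11.0 and 6.44 CPM with vehicle and 24.1 and 25.4 CPM with GSK-LSD1 (1.5 ± 0.22, adjusted p = 0.0108), against 9.65 and 7.41 CPM in wild type. Bbs9, a subunit of the BBSome that carries cargo into cilia (chromosome 9, 22475715 to 22888280, plus strand), rose from 58.0 and 51.4 CPM to 82.8 and 85.7 CPM (0.62 ± 0.11, adjusted p = 0.0244). The Bbs9 call was lost without vehicle library 1 (adjusted p = 0.0811), vehicle library 2 (adjusted p = 0.343) or GSK-LSD1 library 1 (adjusted p = 0.0515), and in 2 alternatives that leave out no library. Of 28 Bardet-Biedl and ciliary genes tested Bbs9 was the one that passed, their median was 0.00, and Cep290 lay lower in both treated libraries (-0.39, adjusted p = 0.63).

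Metabolic and endoplasmic reticulum genes were among those raised. Dpyd, the first enzyme of pyrimidine breakdown (chromosome 3, 118562129 to 119432924, plus strand), was at 7.35 and 7.53 CPM with vehicle and 15.6 and 14.4 CPM with GSK-LSD1 (1.01 ± 0.18, adjusted p = 0.0298). Wfs1, the wolframin protein of the endoplasmic reticulum (chromosome 5, 36966104 to 36989205, minus strand), was at 76.2 and 77.5 CPM with vehicle and 119 and 112 CPM with GSK-LSD1 (0.59 ± 0.10, adjusted p = 0.0342). Wild type held 131 and 118 CPM of Wfs1, the first above both treated libraries and the second between them. Gaa, the lysosomal enzyme that breaks down glycogen (chromosome 11, 119267887 to 119285454, plus strand), rose from 252 and 287 CPM to 444 and 389 CPM (0.63 ± 0.12, adjusted p = 0.0444), and wild type held 427 and 368 CPM. Of 24 endoplasmic reticulum stress genes Wfs1 was the one that passed, and their median was 0.00.

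Several of the remaining raised genes encode secreted or membrane proteins. Myoc, the secreted protein myocilin (chromosome 1, 162639155 to 162649693, plus strand), was at 8.87 and 8.75 CPM with vehicle and 15.8 and 22.6 CPM with GSK-LSD1 (1.11 ± 0.20, adjusted p = 0.0382). Spint2, a membrane-bound inhibitor of serine proteases (chromosome 7, 29256323 to 29281912, minus strand), rose from 10.6 and 10.3 CPM to 18.1 and 20.7 CPM (0.88 ± 0.16, adjusted p = 0.0382). Aebp1, a secreted carboxypeptidase-like protein of the extracellular matrix (chromosome 11, 5861947 to 5872088, plus strand), rose from 4.14 and 4.40 CPM to 11.4 and 8.18 CPM (1.21 ± 0.22, adjusted p = 0.0444). AW551984 (chromosome 9, 39587396 to 39604403, minus strand) rose from 11.4 and 9.25 CPM to 24.6 and 17.2 CPM (1.03 ± 0.19, adjusted p = 0.0382). Calls of these genes depended on the libraries and the processing. Each of Dpyd, Wfs1, Gaa, Myoc, Spint2, Aebp1 and AW551984 was lost in 3 of the 6 fits that leave out a library, those without vehicle library 2, without 1 GSK-LSD1 library and without vehicle library 1. The adjusted p without vehicle library 1 ran from 0.088 for AW551984 to 0.519 for Gaa, and without vehicle library 2 from 0.135 for Gaa to 0.311 for AW551984. Without GSK-LSD1 library 1 it was 0.118 for Dpyd, 0.129 for Wfs1, 0.161 for Gaa, 0.304 for AW551984 and 0.314 for Aebp1. Without GSK-LSD1 library 2 it was 0.117 for Myoc and 0.0875 for Spint2. Of the 13 alternatives that leave out no library, the call was lost in 9 for Gaa, 8 for Aebp1, 7 each for Myoc, Spint2 and AW551984, 6 for Wfs1 and 3 for Dpyd.

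The gene with the smallest p in the comparison was a pseudogene. Rps2-ps10, a processed copy of the ribosomal protein gene Rps2, was at 22.2 and 16.8 CPM with vehicle, 0.594 and 0.818 CPM with GSK-LSD1, and 1.10 and 1.16 CPM in wild type (-4.82 ± 0.28, adjusted p = 3.05e-08). Rps2 (chromosome 17, 24718116 to 24721929, plus strand) was the mirror image, at 21.0 and 21.4 CPM with vehicle, 36.2 and 46.4 CPM with GSK-LSD1, and 42.8 and 37.4 CPM in wild type (0.96 ± 0.14, adjusted p = 0.00461). Without vehicle library 1 the adjusted p of Rps2 was 0.0513. Their sum hardly moved, at 43.1 and 38.1 CPM with vehicle, 36.8 and 47.2 CPM with GSK-LSD1, and 43.9 and 38.6 CPM in wild type. The share of the sum counted to the pseudogene was 51.4% and 44.0% in the vehicle mutants, 1.61% and 1.73% with GSK-LSD1, and 2.49% and 3.0% in wild type. Reads of near-identical copies can be divided between them by alignment, so the fall of Rps2-ps10 and the rise of Rps2 are uncertain as separate results. Of 49 cytosolic ribosomal protein genes tested Rps2 was the one that passed.

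Atp6v0c, the proteolipid of the proton pump (chromosome 17, 24163866 to 24169702, minus strand), also has processed copies. It rose from 60.8 and 61.4 CPM to 119.6 and 91.2 CPM (0.79 ± 0.12, adjusted p = 0.00914), against 113 CPM in both wild-type libraries. The call was lost without vehicle library 1 (adjusted p = 0.0959), vehicle library 2 (adjusted p = 0.0707) or GSK-LSD1 library 1 (adjusted p = 0.0765). Its copy Atp6v0c-ps2 was counted at 192 and 171 CPM with vehicle and 199.7 and 156 CPM with GSK-LSD1 (-0.03, adjusted p = 0.999). None of the other 17 proton pump subunits tested passed. The histone H4 gene Hist1h4c belongs to a family of near-identical copies as well and is uncertain for the same reason. It was at 70.5 and 56.6 CPM with vehicle and 91.8 and 116 CPM with GSK-LSD1 (0.70 ± 0.13, adjusted p = 0.0444). Its call was lost without vehicle library 2 (adjusted p = 0.42), GSK-LSD1 library 2 (adjusted p = 0.117), wild-type library 1 (adjusted p = 0.0541) or wild-type library 2 (adjusted p = 0.0628), and in 7 alternatives that leave out no library.

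The wild-type libraries show where the raised genes stood without the mutation. For 13 of the 19, both treated libraries lay above both wild-type libraries, with Hap1, Baiap3, Prph, Nek10 and Egr2 among them. For the other 6 (Egr4, Wfs1, Gaa, Hist1h4c, Atp6v0c and Rps2) the treated libraries overlapped wild type. The vehicle mutants lay below both wild-type libraries for 13 of the 19 and overlapped them for Baiap3, Prph, Zcchc12, Nek10, Myoc and AW551984. The 19 genes were chosen because they were higher with GSK-LSD1 than in the vehicle mutants. That choice favours high treated and low vehicle values, also when these are set against wild type. The matching shares over all tested genes are not given here, so these positions are a description without a test.

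Apart from Rps2-ps10 no gene fell, and the genes next in order of p are given as values. Slc24a2, a sodium, calcium and potassium exchanger of neurons, was at 692 and 553 CPM with vehicle and 375 and 450.4 CPM with GSK-LSD1 (-0.59, adjusted p = 0.113). It was called by DESeq2 (adjusted p = 0.00162) and without GSK-LSD1 library 2 (adjusted p = 0.0144). Lgi2, a secreted synaptic protein, was at 77.7 and 81.1 CPM with vehicle and 59.6 and 58.3 CPM with GSK-LSD1 (-0.43, adjusted p = 0.195). Epb41, which anchors the membrane skeleton, had a log2 fold change of -0.49 (adjusted p = 0.219), and Sod2, the mitochondrial superoxide dismutase, one of -0.48 (adjusted p = 0.292). The further 7 were Fnbp1l, Trhde, Rad51ap2, Pcdhb19, Cdc73, Pcp4l1 and Micall1, with log2 fold changes between -1.03 (Rad51ap2) and -0.38 (Cdc73) and adjusted p of at least 0.296. On the higher side, members of the gene lists near the threshold included Col25a1, a neuronal transmembrane collagen (0.57, adjusted p = 0.0535), and Bhlhe40, a repressor in the clock (0.53, adjusted p = 0.0633). Per1, given above, and Hspa2, a heat shock protein (0.48, adjusted p = 0.0952), came after them. Col25a1 was called without wild-type library 1 (adjusted p = 0.0323) or 2 (adjusted p = 0.0354).

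The complexes that contain the drug's target showed no difference that passed. Of 18 LSD1-CoREST genes and partner genes tested none rose or fell, none had an unadjusted p under 0.05, and log2 fold changes ran from -0.10 to 0.25. The corepressors Rcor1, Rcor2 and Rcor3 lay at 0.10, -0.10 and 0.25, and Rest itself at 0.03. Gfi1b, a blood-cell factor that recruits LSD1, had 0 reads in all libraries. Of 35 REST target genes 1 rose, Prph, and the median was -0.04. Vgf, a secreted neuropeptide precursor on the same list, was at 182 and 158 CPM with vehicle and 225 and 229.95 CPM with GSK-LSD1 (0.42, adjusted p = 0.336). Of 42 histone lysine methyltransferases and demethylases none passed, and the median was 0.00. Kdm3a, a demethylase of lysine 9 of histone H3, lay at 0.29 (adjusted p = 0.782).

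Genes of the excitatory synapse, where Shank3 acts, gave no calls. None of 17 ionotropic glutamate receptor subunits passed or had an unadjusted p under 0.05, and their median was 0.02. None of 34 postsynaptic scaffold and adhesion genes passed. Their median was -0.04, with 11 lower without overlap (against 16.6% of all tested genes) and 3 higher (against 17.0%). Shank1 lay at -0.31 (adjusted p = 0.949) and Shank2 at -0.15 (adjusted p = 0.986). Of 40 voltage-gated channel genes none passed. At an unadjusted p under 0.05, 6 of them were lower and none higher, against 2.52% and 3.18% of all tested genes. Without overlap 18 were lower and 2 higher, against 16.6% and 17.0%. The median of the 40 was -0.10. The M-current subunit Kcnq3 was at 226 and 228 CPM with vehicle and 191 and 186 CPM with GSK-LSD1 (-0.27, adjusted p = 0.763), the calcium channel subunit Cacnb4 lay at -0.32 (adjusted p = 0.674) and the sodium channel subunit Scn4b at -0.41 (adjusted p = 0.584). Of 52 autism risk genes none passed, and the median was -0.06 (-0.023 without vehicle library 1). Without overlap 17 of them were lower and 6 higher, against 16.6% and 17.0% of all tested genes.

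Differences between the groups varied with gene length and base composition. Across 13809 genes with a mean log2 CPM above 1, log2 fold changes correlated with transcript length at a Spearman coefficient of -0.185 and with GC content at 0.209, over genes, which are not independent replicates. Of 54 respiratory chain and ATP synthase genes 51 were positive, none passed, 19 were higher without overlap (against 17.0% of all tested genes) and none lower, and the median was 0.11. That median was 0.013 without vehicle library 2 and 0.21 without vehicle library 1. With an offset for length and GC content the median of the channel genes was -0.07 and that of the respiratory genes 0.11. Cytosolic ribosomal protein genes had a median of 0.14, which was 0.037 without GSK-LSD1 library 2 and 0.27 without GSK-LSD1 library 1. Histone genes had a median of 0.21, which was 0.043 and 0.34 without the same libraries. The medians of the motor, vesicle release, REST target and postsynaptic lists, between -0.07 and -0.04, turned sign without GSK-LSD1 library 2.

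**Figure D4:**
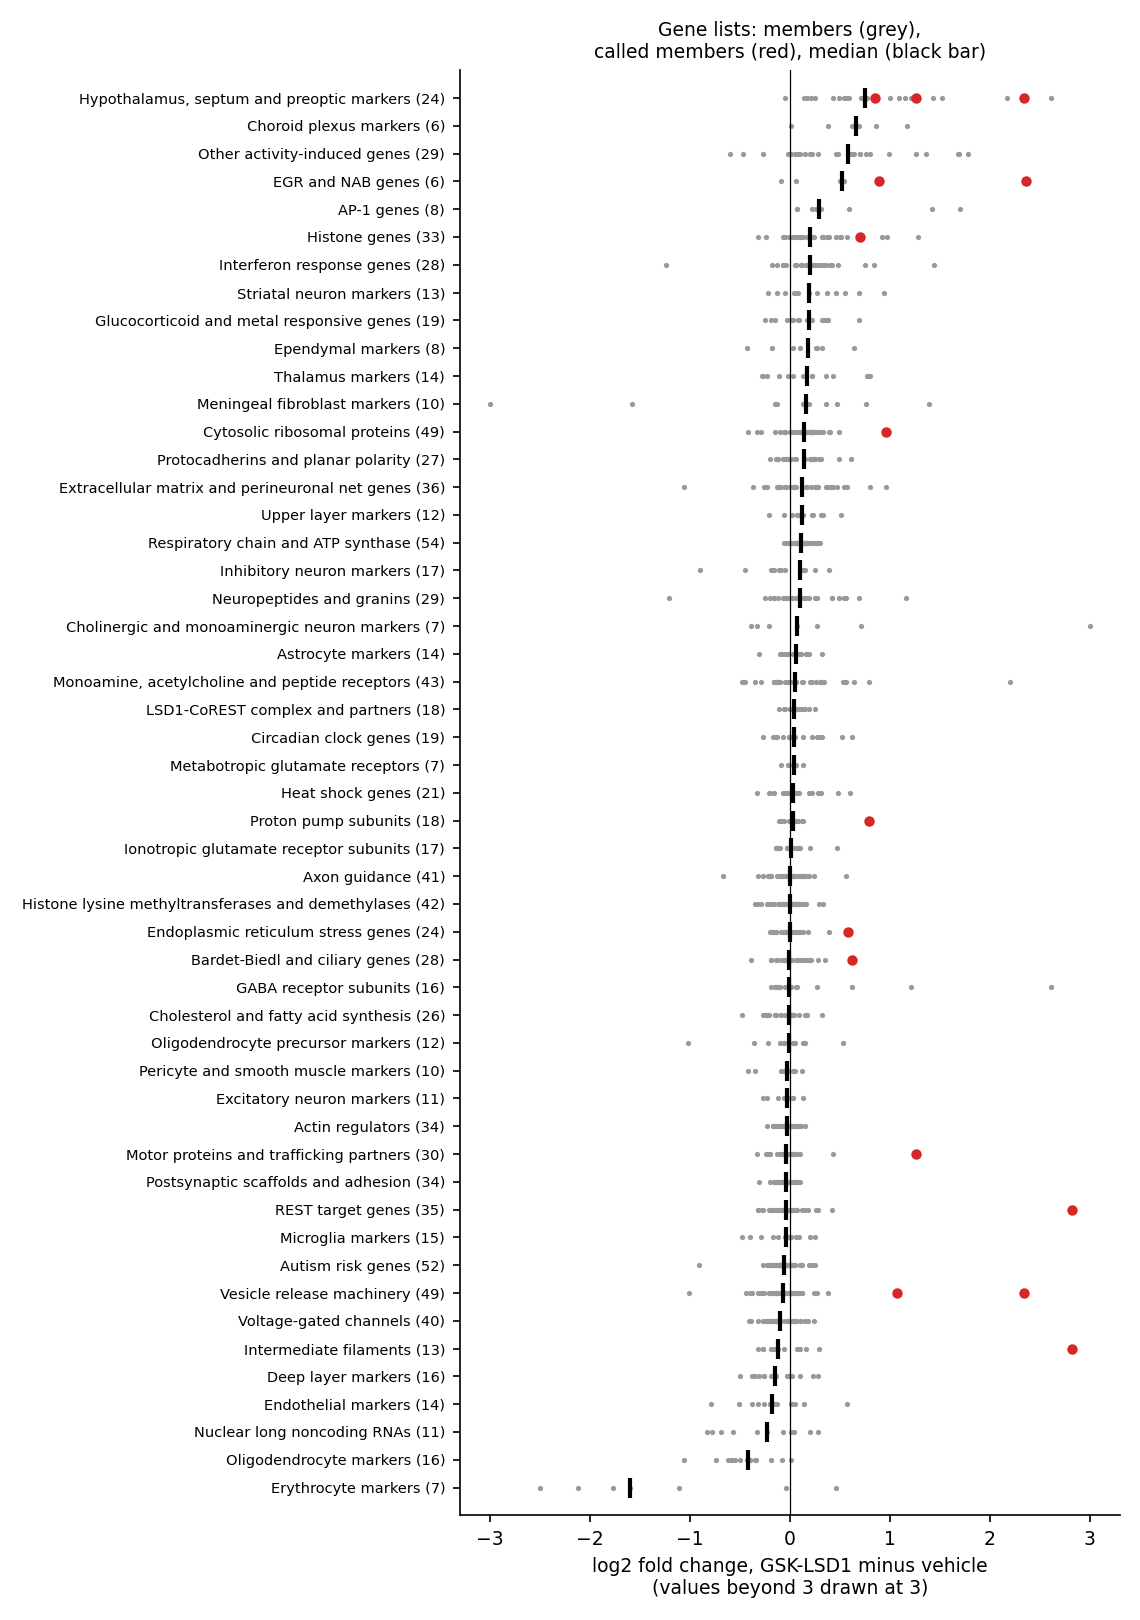
Log2 fold changes of GSK-LSD1 against vehicle are shown for the members of each gene list, with 1 point per tested gene, red where it passed and a black bar at the median; the number tested stands after each name. EGR, AP-1 and other activity-induced genes have medians of 0.52, 0.29 and 0.58 and the hypothalamus, septum and preoptic list 0.75, while most lists of synaptic and chromatin genes lie near 0.

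Receptors and secreted peptides also gave no call. At an unadjusted p under 0.05, 6 of 43 receptors for monoamines, acetylcholine and peptides were higher and 3 lower. Over all tested genes the shares were 3.18% and 2.52%. The oxytocin receptor Oxtr was at 6.11 and 6.94 CPM with vehicle and 11.9 and 10.7 CPM with GSK-LSD1 (0.79, adjusted p = 0.312), and the delta opioid receptor Oprd1 was at 23.0 and 24.1 CPM with vehicle and 16.6 and 17.4 CPM with GSK-LSD1 (-0.47, adjusted p = 0.502). The opioid precursor Pdyn was at 20.3 and 25.2 CPM with vehicle and 44.4 and 28.3 CPM with GSK-LSD1 (0.69, adjusted p = 0.581). Gabrq, a GABA receptor subunit known from hypothalamus and amygdala, was at 1.75 and 1.18 CPM with vehicle and 3.77 and 3.0 CPM with GSK-LSD1 (1.22, adjusted p = 0.505). The axon guidance receptor Nrp2 was at 26.7 and 25.1 CPM with vehicle and 35.4 and 41.0 CPM with GSK-LSD1 (0.56, adjusted p = 0.219).

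Markers of neighbouring brain regions were measured in the same libraries. In bulk tissue fewer cells of a type and less RNA per cell cannot be told apart, and the same holds for more. Of 35 hypothalamus, septum and preoptic markers listed 24 could be tested, and 3 rose, Hap1, Baiap3 and Zcchc12, which were put on the list with their results known. The other members were also chosen with earlier results of these data known, so their values are no independent support. Of the other 21 none passed, 20 were positive, 7 were higher at an unadjusted p under 0.05 (against 3.18% of all tested genes) and none lower, and their median was 0.71. A member that passes the filter on low counts only through the treated libraries is positive by that choice. Gabre, with the largest log2 fold change on the list (2.61), was at 0.0919 and 0.0907 CPM with vehicle and 0.509 and 0.681 CPM with GSK-LSD1. These counts and the median are therefore a description without a test. The median of all 24, 0.75, was 0.42 without GSK-LSD1 library 2 and 1.17 without GSK-LSD1 library 1. The summed level of the 21 that did not pass was 1179 and 1063 CPM with vehicle, 1241 and 1372 CPM with GSK-LSD1 and 1201 and 1098 CPM in wild type. Relative to the vehicle mean, the mean log2 level of all 24, with the 3 that rose included, was 0.56 and 1.10 in GSK-LSD1 libraries 1 and 2, and 0.07 and -0.07 in wild type. Ngb, the globin of neurons, was at 2.94 and 6.39 CPM with vehicle and 10.3 and 10.6 CPM with GSK-LSD1 (1.16, adjusted p = 0.261).

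The 11 members of the list left out by the filter on low counts, and so low by that choice, were given as reads. They (Gal, Oxt, Avp, Hcrt, Pmch, Nkx2-1, Lhx8, Sim1, Otp, Isl1 and Calcr) together held 19 and 21 reads with vehicle, 16 and 55 reads with GSK-LSD1 and 4 and 13 reads in wild type. Of the 55 reads in GSK-LSD1 library 2, 33 were from Isl1, a factor of striatal, septal and hypothalamic neurons. Striatal markers had a median of 0.19 over 13 tested and thalamus markers one of 0.18 over 14, with none passing in either list. At an unadjusted p under 0.05, 4 striatal markers were higher and 0 lower, and 0 thalamus markers were higher and 2 lower. Of all tested genes 3.18% were higher and 2.52% lower at that level. The thalamus median was -0.13 without GSK-LSD1 library 2 and -0.035 without vehicle library 1. The part of dissection in the rise of Hap1, Baiap3 and Zcchc12 was not tested.

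Oligodendrocyte genes divided the treated libraries. The summed level of 16 oligodendrocyte markers was 6434 and 6536 CPM with vehicle, 2754 and 6177 CPM with GSK-LSD1, and 2948 and 2713 CPM in wild type. GSK-LSD1 library 1 thus lay at the wild-type level and library 2 at that of the vehicle mutants. No marker on the list passed, and the median of -0.42 moved to 0.09 without GSK-LSD1 library 1 and to -1.20 without library 2. With the oligodendrocyte level in the model as a covariate there were 26 higher and 2 lower genes, and 15 of the 20 genes were still called.

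No marker of the other cell types passed. Excitatory and inhibitory neuron markers had medians of -0.03 and 0.10, astrocyte markers 0.06 and microglia markers -0.04, and each of these medians turned sign when 1 of the mutant libraries was left out. Choroid plexus markers stood at -0.29 and 1.21 in the GSK-LSD1 libraries relative to the vehicle mean, and of their 6 tested members Kl, the ageing-related hormone receptor partner klotho, lay highest above vehicle (7.67 and 8.45 CPM against 2.94 and 4.17, 1.18, adjusted p = 0.119). Erythrocyte markers were lower in both treated libraries (median -1.60, 5 of 7 without overlap against 16.6% of all tested genes, none at an unadjusted p under 0.05). Hbb-bs, a beta globin, was at 55.5 and 123 CPM with vehicle and 17.0 and 24.5 CPM with GSK-LSD1 (-2.12, adjusted p = 0.907). Endothelial markers had a median of -0.17, with 4 of 14 lower at an unadjusted p under 0.05 against 2.52% of all tested genes. The median was 0.056 without vehicle library 2, 0.044 without GSK-LSD1 library 2 and -0.38 without GSK-LSD1 library 1. Meningeal fibroblast markers had a median of 0.16, with 6 of 10 positive. That median ran from -0.44 without GSK-LSD1 library 1 to 0.49 without GSK-LSD1 library 2. At an unadjusted p under 0.05, 3 meningeal markers were higher and 1 lower, against 3.18% and 2.52% of all tested genes. The higher ones were Slc6a13 (1.39), Aldh1a2 (0.76) and Igfbp2 (0.47). The lower one, the collagen Col1a1, was at 133 and 197 CPM with vehicle and 22.2 and 12.9 CPM with GSK-LSD1 (-3.21, adjusted p = 0.873). Col1a1 was called in 2 of the 13 alternatives that leave out no library. These were limma-voom (adjusted p = 0.0319) and edgeR without the robust option (adjusted p = 0.0352). The part of blood and meninges left on the tissue was not tested.

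**Figure D5:**
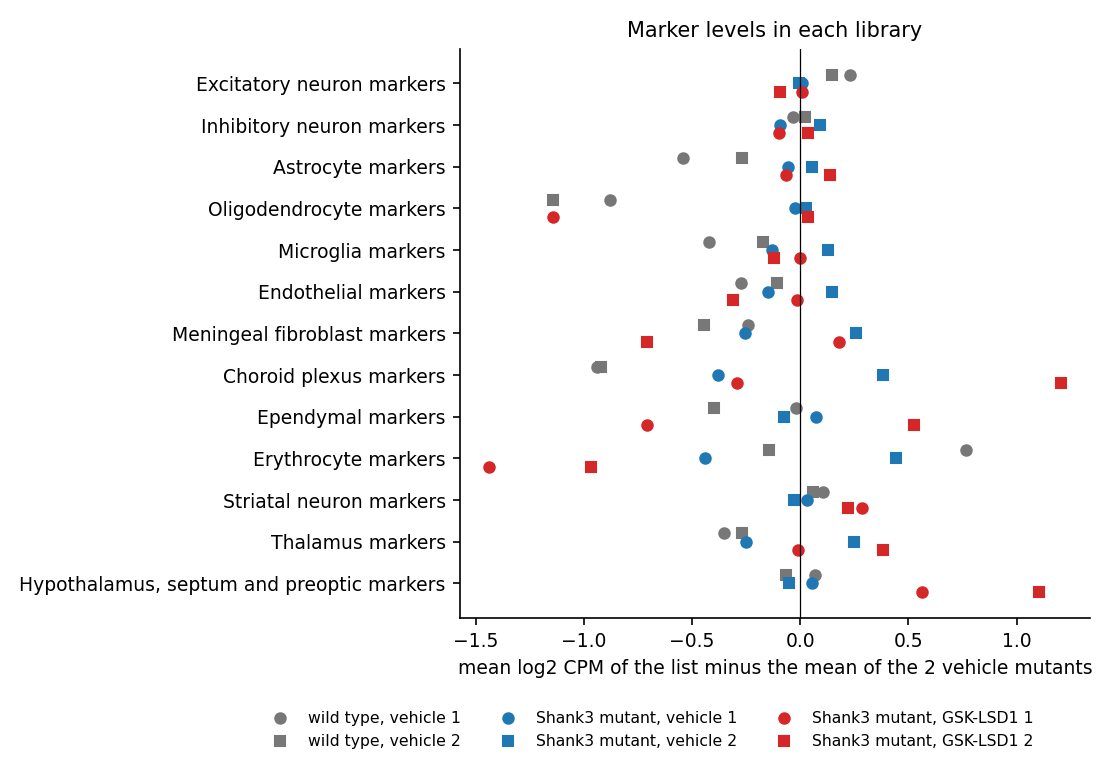
For each marker list, the mean log2 CPM of its tested members in a library is shown minus the mean of both vehicle mutants, with circles for replicate 1 and squares for replicate 2. Red marks (GSK-LSD1) lie at -1.14 and 0.03 for oligodendrocyte markers and at 0.56 and 1.10 for hypothalamus, septum and preoptic markers, and at values near 0 for excitatory neuron markers.

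The start sites of raised genes were searched for the motifs of factors that work with LSD1 or with neuronal activity, in the 250 bases before the start and on both strands. A window was found for 17 of the 19 raised genes. The CRE core TGACG stood in 6 of the 17 (35.3%: Hap1, Egr2, Egr4, Aebp1, Gaa and Atp6v0c), in 20 of 33 activity-induced genes with a window (60.6%), and in 26.2% of 11992 tested genes. The left part of RE1, CAGCACC, stood in 3 of 17 (Zcchc12, AW551984 and Rps2) against 5.9% of tested genes, and the right part, GGACAGC, in 1 (Baiap3) against 6.24%. No raised gene held both parts of RE1. The EGR site core GTGGGCG and the AP-1 site TGANTCA each stood in 1 (AW551984), against 12.3% and 4.14%, and the GFI1 site AAATCA in 1 (Bbs9) against 7.69%. The GC box GGGCGG stood in 8 of 17 (47.1%) against 57.8%. The CArG box stood in 1 raised gene, Egr2, in 2 of the 33 activity-induced genes (Egr2 and Dusp5) and in 1.15% of tested genes. The same sequence motifs were thus found in part of the raised genes and in many genes that did not pass.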

How the data were processed

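Bulk RNA-seq of prefrontal cortex was analysed for 4 Shank3 mutant libraries (2 with GSK-LSD1, 2 with vehicle), with 2 wild-type libraries in the same model. Per the labels, total RNA was depleted of ribosomal RNA and made into stranded libraries. The deposited values are raw counts per gene symbol (54134 per library). The submitters' processing notes name cutadapt, TopHat2, SAMtools, featureCounts and edgeR, with mm10 (GRCm38). Their versions, gene annotation and strandedness option are not given in the sources used, so overlapping genes may share reads. Mitochondrial genes are listed at 0, and 26 symbols had become dates. No library repeats another: replicates differed beyond counting error (9.07 to 12.0 for chi-square over its degrees of freedom).

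Counts were filtered with filterByExpr, scaled by TMM and tested with edgeR 4.0.16 (R 4.3.3, robust quasi-likelihood, two-sided, 3 residual degrees of freedom, Benjamini-Hochberg over 18705 genes, threshold 0.05). SEs of log2 fold changes were derived from the F statistic. The biological coefficient of variation was 11.5%. With 2 libraries per group p-values measure the spread between these animals only, and intervals from 3 reads cover counting error only. Lists are described by counts and medians, with no test of a list. The members and lists were chosen with earlier results of these data known. Named genes were Shank3, Kdm1a, Egr1 to Egr4, every gene that passed, the genes next by p up to 12 per direction (mean CPM of at least 1, no overlap, no predicted gene), and up to 4 members of each of 52 lists with the smallest p. Arc, Npas4, Atp6v0c-ps2, Rcor1, Rcor2 and Rest, and the hypothalamic genes counted in reads, fall outside that rule. 1 gene that the rule names is not reported here. Alternatives used DESeq2 1.42.0, limma 3.58.1 (voom), other scalings, filters and covariates, and each library left out. The procedure was tested on simulated data. Coordinates are from GENCODE M21 (GRCm38) and promoter windows from RefSeq (GRCm38.p6). Motifs were fixed with the lists, except the CArG box, CC followed by any of A or T in the middle bases and GG, which was added after sequences were seen.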

Additional observations from a re-analysis of the deposited data

How the results depend on the processing

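Against 19 higher and 1 lower gene, other scalings, a minimum mean CPM of 1, limma-voom, edgeR without the robust option, the 4 libraries alone, the 20 most abundant genes left out and a length and GC offset gave 13 to 20 higher genes. More were called without the filter on low counts (88 higher, 18 lower), by DESeq2 (33 and 2) and at an adjusted p of 0.10 (29 higher). Lower genes numbered 2 with limma-voom, 2 without the robust option, 2 with the oligodendrocyte covariate and 2 with the replicate block. The replicate number as a block gave 16 higher genes, and 13 of the 20 called genes were still called. Same-numbered libraries did not deviate together (r = 0.0738 between GSK-LSD1 and vehicle mutants over 13809 genes, -0.0564 and -0.0489 of each with wild type). With a single replicate difference per group, these correlations cannot decide whether the numbers pair the animals. Leaving out 1 library gave 8 to 34 higher and 1 to 49 lower genes, with the fewest without vehicle library 1 or 2 and the most without GSK-LSD1 library 2. Of 1501 values of 79 genes under 19 alternatives 1326 kept direction and side of the threshold, 98 lost a call, 69 gained one and 8 turned sign. With each library left out in turn, log2 fold changes ran from -0.18 (without GSK-LSD1 library 2) to 0.29 for Egr3, from -0.22 to 0.14 (GSK-LSD1 library 2) for Atp6v0c-ps2, which also turned without vehicle library 1, from -0.18 to 0.074 (vehicle library 2) for Shank3, and from -0.071 (vehicle library 2) to 0.11 for Kdm1a, which also turned without GSK-LSD1 library 1. Kdm1a was at -0.012 with the length and GC offset and -0.041 with the oligodendrocyte covariate. The cause of these changes was not tested. At 14133834 reads in GSK-LSD1 library 2, a gene at 3 reads stands at 0.212 CPM before TMM scaling. The smallest difference that could be detected was not computed, and it is limited by the 2 libraries per group.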

Other observations

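Of the raised genes 3 lie near one another on chromosome 17, a stretch singled out after its values were seen. Between Atp6v0c and Baiap3 (GRCm38, 24163866 to 25256364, 1092 kb) 50 genes were tested, 3 of them rose (Atp6v0c, Rps2 and Baiap3) and none fell. Of the 50, 32 (64.0%) were positive against 9330 of 18705 over all tested genes. In 19 (38.0%) both treated libraries lay above both vehicle libraries, against 17.0% of all tested genes. Both counts include the 3 genes that rose, and Atp6v0c and Baiap3 set the ends of the stretch, so these shares are partly fixed by that choice. Without the 3 genes the median log2 fold change there was 0.04. Atp6v0c and Rps2 are the genes with near-identical copies described above.

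Histone genes of the Hist1 cluster on chromosome 13 had mostly positive log2 fold changes in treated mutants. Of 44 tested Hist1 genes 39 were positive, and 13 were higher and none lower at an unadjusted p under 0.05, against 3.18% and 2.52% of all tested genes. Without overlap 15 were higher and none lower, against 17.0% and 16.6%. The median was 0.45, and Hist1h4c was the one past the threshold. Hist1h4h, another copy encoding histone H4, was at 72.8 and 58.7 CPM with vehicle and 85.9 and 100.7 CPM with GSK-LSD1 (0.50, edgeR adjusted p = 0.199). Hist1h4d was at 109 and 98.5 CPM with vehicle and 130.1 and 132 CPM with GSK-LSD1 (0.34, edgeR adjusted p = 0.505). Most of these genes make transcripts without a poly(A) tail, which total RNA libraries hold, and reads of their near-identical coding sequences may be divided among copies. Without GSK-LSD1 library 2 the median of the 33 listed histone genes went from 0.21 to 0.04. Relative to the vehicle mean, the mean log2 level of these 33 was -0.01 and 0.46 in GSK-LSD1 libraries 1 and 2. It was 0.09 and -0.09 in vehicle libraries 1 and 2, so GSK-LSD1 library 1 lay between them.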
